A study of Mus musculus with 1 sample.

Results

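Cytosolic ribosomal protein genes encode the proteins of the large (60S) and small (40S) subunits of the ribosome that translates nuclear mRNAs. They were taken as all protein-coding genes of the GENCODE vM21 annotation whose symbol starts with Rpl or Rps followed by a digit or by p and a digit, together with Rpsa, while ribosomal S6 kinases and Rps19bp1 were left out. The rule found 91 annotated genes, 57 of the large and 34 of the small subunit. Of these, 72 genes, 43 of the large and 29 of the small subunit, had at least 10 reads and were analysed among 7146 nuclear genes with that many. Another 14 genes had 1 to 9 reads, and 5 (Rpl9-ps1, Rpl36al, Rpl3l, Rpl36-ps4 and Rps12-ps3) had none.

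The cells were wild-type 24h-EpiLCs of the ICR strain, that is, mouse embryonic stem cells (ESCs) 24 h into their change to epiblast-like cells (EpiLCs) in N2B27 medium with activin A, bFGF and KSR on Matrigel. PAIso-seq copies whole transcripts with their poly(A) tails and reads each molecule many times over on the PacBio platform, so that the length and the bases of every tail are seen. There was 1 group with 1 sample, whose file holds 2 barcoded replicates, numbered here by barcode because the labels do not tie a barcode to a replicate or say that the cultures were separate. P-values therefore rest only on the spread between these 2 libraries, which may be technical. The fit used below also draws each gene's spread toward that of genes with similar read numbers. Its p-values and standard errors (moderated SE) are thus not the observed spread of 1 gene.

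Ribosomal protein mRNAs are among the most abundant and most stable mRNAs of growing cells. Many of them start with a run of pyrimidines, the 5′ terminal oligopyrimidine (5′TOP) motif, through which mTOR signalling controls their translation. The poly(A) tail is added in the nucleus, bound by poly(A)-binding proteins and shortened by deadenylases in the cytoplasm, and short tails can receive terminal uridines. Mammalian genomes also carry many intron-less copies of ribosomal protein mRNAs, the processed pseudogenes.

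Reads that passed at least 7 rounds of the circular molecule were used, 246316 from nuclear genes in replicate 1 and 455660 in replicate 2. Markers of the labelled cell state were present. Reads fell on 2 of 2 pluripotency genes (146 in replicate 1 and 242 in replicate 2 in sum) and 5 of 5 formative genes (427 and 625). Of 7 naïve genes 6 had reads (159 and 409), most of them from Zfp42 (129 and 372). Over both replicates Esrrb had 40 reads, Klf2 12, Nanog 10, Tbx3 4, Klf4 1 and Prdm14 0. Markers of other lineages were close to 0, with 0 and 1 read for 4 primitive endoderm genes, 3 and 2 for 2 mesoderm genes, 5 and 0 for 2 neural genes, and 0 for the trophectoderm gene Cdx2.

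The tails themselves are shown here for 3 genes that span the range of the well-read members, Rpl18 (the shortest of 19 genes with at least 100 reads in each replicate), Rpl4 (the gene with the most reads) and Rps21 (the longest of the 19). Each of the first 3 lines is 1 read at the median length of its gene, 83 nt, 96 nt and 131 nt. The next lines show a Rps15 tail that ends in T and Rpl4 tails with 1 inner base other than A. Sequences run 5′ to 3′, and capitals mark bases other than A.
Rpl18: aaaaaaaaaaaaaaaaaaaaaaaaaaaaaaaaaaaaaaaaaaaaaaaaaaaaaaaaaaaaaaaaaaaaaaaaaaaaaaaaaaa
Rpl4: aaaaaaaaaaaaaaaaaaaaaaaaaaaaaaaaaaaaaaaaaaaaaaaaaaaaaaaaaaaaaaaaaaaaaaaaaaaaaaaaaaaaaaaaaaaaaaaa
Rps21: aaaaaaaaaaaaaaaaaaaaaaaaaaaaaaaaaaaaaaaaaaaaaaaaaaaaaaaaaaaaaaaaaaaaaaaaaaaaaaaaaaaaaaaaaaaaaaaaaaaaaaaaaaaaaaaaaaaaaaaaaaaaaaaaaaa
Rps15, last base T: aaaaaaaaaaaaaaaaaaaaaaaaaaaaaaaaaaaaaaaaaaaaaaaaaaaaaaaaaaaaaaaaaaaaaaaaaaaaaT
Rpl4, inner C: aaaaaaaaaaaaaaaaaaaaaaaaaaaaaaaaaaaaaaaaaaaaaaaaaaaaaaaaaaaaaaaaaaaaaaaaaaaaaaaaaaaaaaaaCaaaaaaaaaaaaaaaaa
Rpl4, inner G: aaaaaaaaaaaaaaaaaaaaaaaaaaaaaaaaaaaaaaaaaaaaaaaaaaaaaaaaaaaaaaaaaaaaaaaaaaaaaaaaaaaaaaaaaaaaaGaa

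Members took 6913 reads of replicate 1 and 11633 of replicate 2, or 2.81% (95% Wilson interval 2.74% to 2.87%) and 2.55% (2.51% to 2.60%) of nuclear reads. The reads carry no molecular identifiers, so this and all other intervals cover counting error only. Reads assigned to the genes themselves were spread very unevenly over proteins that the ribosome holds in nearly equal number, and these counts leave out reads at matched pseudogenes. Rpl4, whose protein reaches into the nascent peptide exit tunnel, had 4158 reads, 1517 in replicate 1 and 2641 in replicate 2. Rps14 had 1360, Rps3 1138, Rpl8 985 and Rps3a1 918. At the other end, 22 members had 10 to 29 reads and 23 had 30 to 99, and Rpl10, which joins the large subunit late in its assembly, had 9. The median member had 53.5 reads, against 37 for all tested genes. With matched pseudogenes joined, the median of 84 genes was 520.5 reads, and Rpl5 (2356), Rps2 (2237), Rplp0 (2065) and Rpl3 (1608) followed Rpl4 in place of the genes above. Rpl10 then had 238, which leaves out the 527 reads of its copy Rpl10-ps3, itself counted as a member.

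Tails of ribosomal protein genes were longer than those of the median gene. The tail length of a gene was its geometric mean over reads. Over the 72 members this value had a median of 89.9 nt, and the middle part of the members ran from 79.7 nt to 100.0 nt (quartiles), where all 7146 tested genes had 76.4 nt. The difference was 14.6 nt in replicate 1 (92.6 nt against 78.0 nt, 56 members with 10 reads in that replicate) and 11.4 nt in replicate 2 (88.2 nt against 76.8 nt, 65 members). It was positive in both replicates, and larger than the SD of 2.22 nt between them. Of the 72 members, 58 lay above the median of all genes and 14 below, and every one of the 31 members with at least 30 reads in each replicate lay above it by its pooled value.

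**Figure D1:**
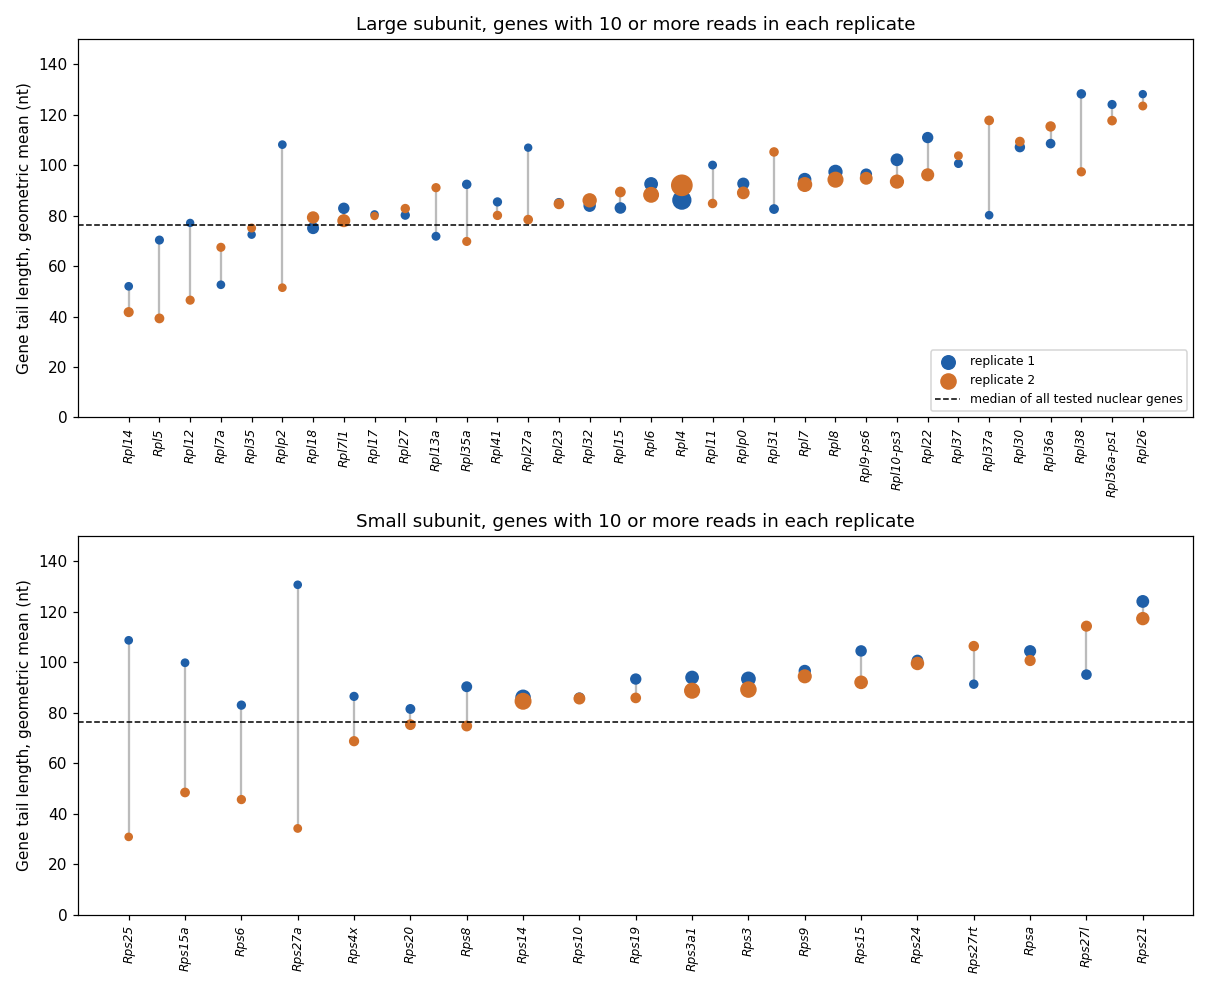
Gene tail length (geometric mean, nt) of 53 of the 55 members with at least 10 reads in each replicate, in replicate 1 (blue) and replicate 2 (orange), with larger points for more reads. The dashed line is the median of all tested nuclear genes, 76.4 nt. Members with many reads sit close together, from 77.3 nt to 120.3 nt pooled over replicates, and the wide gaps between replicates belong to members with few reads.

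The comparison depends on which genes the members are set against. Ribosomal protein transcripts are short, with a median of 1100 nt for the longest annotated transcript of a member against 3252 nt for all tested genes. The 258 protein-coding genes whose longest annotated transcript has at most 1000 nt gave a median of 95.3 nt, and relative to these the members' median came out at -5.37 nt. The 29 members within that length limit had a median of 91.7 nt. Among the 72 members, gene tail length and transcript length had a Spearman's correlation of -0.32, a description over genes that share their libraries and differ widely in depth.

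The large and small subunits did not differ in tail length beyond the spread between replicates. The median gene tail was 89.8 nt for the 43 large-subunit genes and 90.3 nt for the 29 small-subunit genes, a difference of -0.47 nt. Within a replicate only genes with at least 10 reads there were counted, so the gene sets differ between replicates. In replicate 1 the large subunit had 86.1 nt (35 genes) and the small subunit 94.0 nt (21 genes). In replicate 2 they had 90.2 nt (40 genes) and 85.6 nt (25 genes). The sign of the difference thus changed between replicates, from -7.86 nt to 4.59 nt, an SD of 8.8 nt around a value close to 0. Single values of the 2 subunits overlapped over most of their range, from 25 nt to 187.9 nt in the large and 31 nt to 122.6 nt in the small subunit.

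Counted over reads rather than genes, member tails had a median of 101 nt in the first replicate and 100 nt in the second, where all nuclear reads had 91 nt in both. Tails over 90 nt made up 57.0% (55.8% to 58.1%) and 56.7% (55.8% to 57.6%) of member reads, against 50.6% of all nuclear reads in each replicate. In the large subunit the share was 54.8% in replicate 1 (53.3% to 56.4%) and 56.5% in replicate 2 (55.3% to 57.7%). In the small subunit it was 59.8% (58.0% to 61.6%) and 57.0% (55.6% to 58.4%). The intervals of the subunits were thus apart in replicate 1 and overlapped in replicate 2. However, Rpl4 alone gave 1517 of the 3962 large-subunit reads of replicate 1, with a median tail of 90 nt there. The gap in replicate 1 may therefore rest on this gene, and the shares without Rpl4 were not computed.

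The plainest difference between members and all nuclear reads was at the short end. In replicate 1, 2.81% (2.44% to 3.22%) of member reads had a tail of 6 to 30 nt, and in replicate 2 it was 2.70% (2.42% to 3.01%). Among all nuclear reads the shares were 8.62% (8.51% to 8.73%) and 8.05% (7.97% to 8.13%). Large-subunit reads had 2.93% and 2.73% in this class, and small-subunit reads 2.64% and 2.66%. At the long end members and all reads were close, since 2.30% and 1.95% of member tails exceeded 200 nt, against 2.57% and 2.19% of all tails.

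**Figure D2:**
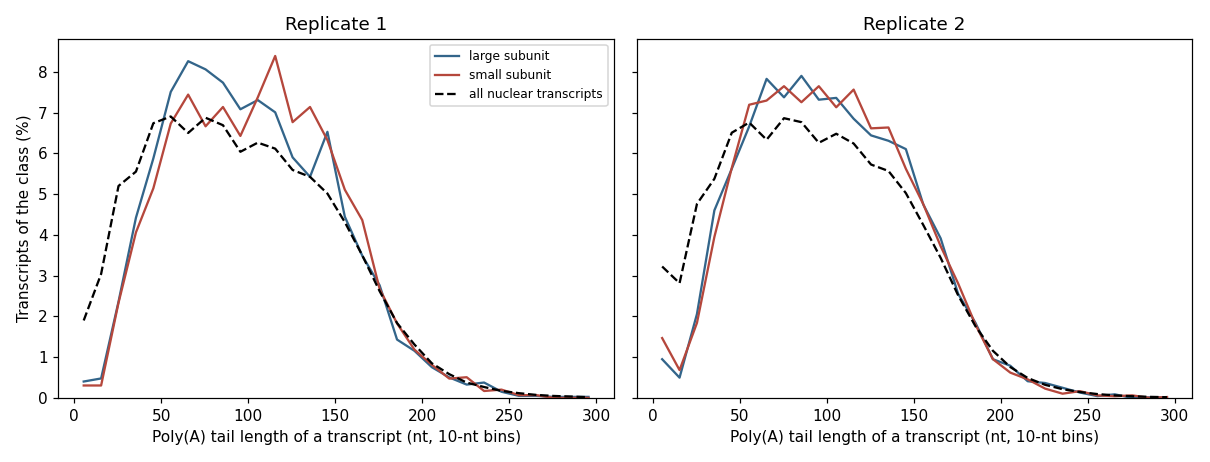
Share of reads (%) by poly(A) tail length in 10-nt bins, up to 300 nt, for large-subunit genes (blue), small-subunit genes (red) and all nuclear transcripts (dashed black), in each replicate. The ribosomal protein curves lie below the curve of all transcripts under 30 nt, where members have 2.81% and 2.70% of tails of 6 to 30 nt against 8.62% and 8.05%, and the curves meet above 200 nt.

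To ask which single members differed from the median of all genes, log2 gene tail minus the replicate's median over tested genes was fitted with limma, with Benjamini-Hochberg adjustment over the 4286 nuclear genes that had at least 10 reads in each replicate. Of 55 members in this fit, 17 were longer than the median at an adjusted p under 0.05, where 5.69% of all tested genes were called longer. Only Rpl14 was shorter (limma adjusted p = 0.0398), where 6.7% of all tested genes were called shorter, and 37 members did not pass. That call was lost without a pass filter, against protein-coding genes, centred by the mean, without the variance trend and with pseudogenes joined, and Rpl14, with 14 reads in replicate 1, was not in the fit of genes with at least 30 reads. Genes with more reads have a smaller error and are called more often. Among genes with at least 100 reads in each replicate, 14 of 19 members were called longer, against 32.4% of all 450 such genes, and 0 of 19 shorter, against 11.1%. Without regard to a test, 39 of 55 members lay above the median in both replicates, against 35.0% of all tested genes, and 5 lay below it in both.

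Of the limits of these calls, a limma fit without the trend of variance on reads called 0 members. That fit called 0 of all 4286 genes longer and 1 shorter. At an unadjusted p under 0.05 in it, 12 members were longer and 1 shorter, where the main fit had 25 and 2. With the median tail of a gene in place of the geometric mean, 4 of 55 members were called longer (Rpl10-ps3, Rps3, Rps21 and Rps24). Of all genes, 2.66% were called longer in that setting. Even so, 48 of the 55 deviations were then positive.

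Among the 10 large-subunit genes with at least 100 reads in each replicate, the longest tails belonged to Rpl10-ps3, Rpl9-ps6, Rpl8, Rpl7 and Rplp0. Rpl10-ps3 (ENSMUSG00000058443, an intron-less copy of Rpl10 that the annotation lists as protein-coding) had 102.1 nt in replicate 1 and 93.5 nt in replicate 2. Rpl9-ps6 (ENSMUSG00000062456, the same kind of copy of Rpl9) had 96.3 nt and 94.8 nt. Rpl8 (ENSMUSG00000003970), a protein near the peptidyl transferase centre, had 97.3 nt and 94.2 nt, and Rpl7 had 94.3 nt and 92.3 nt. All 4 were high in both replicates and longer than the median of all genes by 0.26 to 0.33 on the log2 scale (limma, Benjamini-Hochberg adjusted p from 0.00327 for Rpl8 to 0.026 for Rpl9-ps6).

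The shortest of this group were Rpl18, Rpl7l1, Rpl32, Rpl6 and Rpl4. Rpl18 had 75 nt in replicate 1 and 79.2 nt in replicate 2, Rpl7l1 had 82.9 nt and 78.0 nt, and Rpl32 had 83.9 nt and 86.0 nt. These 3 lay near the median of all genes, with log2 deviations of -0.02, 0.04 and 0.12 and adjusted p-values in limma with Benjamini-Hochberg adjustment of 0.905, 0.698 and 0.143. Rpl6 (92.5 nt and 88.2 nt) and Rpl4 (86.1 nt and 92.0 nt) were still longer than the median. Their log2 deviations were 0.21 ± 0.04 and 0.19 ± 0.02 (moderated SE, n = 2 libraries, limma adjusted p = 0.0141 and 0.00486). By replicate Rpl4 deviated by 0.14 and 0.24. Rpl4, with the most reads of all members, was among the few that were longer in replicate 2 than in replicate 1, since 15 of the 19 well-read members were longer in replicate 1.

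The small subunit held the longest tails of the well-read members. Rps21 (ENSMUSG00000039001, GRCm38 chromosome 2, 180257377 to 180258445, plus strand) had 124.1 nt in replicate 1 and 117.3 nt in replicate 2, from 195 and 245 reads. Both values lay above those of every other member with 100 reads in each replicate. The deviation from the median of all genes was 0.63 ± 0.05 on the log2 scale (moderated SE), or 1.55-fold (limma, Benjamini-Hochberg adjusted p = 0.00114). Of Rps21 tails, 84.1% were over 90 nt. Rps24, a gene mutated in Diamond-Blackfan anaemia, had 100.7 nt and 99.5 nt, and Rps15, which sits near the decoding site, had 104.5 nt and 92.0 nt. Rps9 had 96.5 nt and 94.4 nt. These 3 were called longer as well, by 1.23- to 1.28-fold (limma adjusted p from 0.00968 to 0.0214).

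At the short end of the well-read small-subunit genes, Rps14 had 86.1 nt and 84.6 nt, Rps3a1 94.0 nt and 88.7 nt, and Rps3, which binds mRNA at its entry, 93.4 nt and 89.2 nt. All 3 were longer than the median, by 1.09- to 1.17-fold. The low error of Rps14, with 1360 reads, let a deviation of 0.13 pass (limma adjusted p = 0.0308), although that call was lost under 5 of the alternatives tried, with adjusted p-values of 0.0524 to 0.706.

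Well-read members formed a narrow band. The 19 genes with at least 100 reads in each replicate ran from 77.3 nt to 120.3 nt, and their log2 tails had an SD of 0.14, where all 450 nuclear genes of that depth had 0.38. The larger SD includes extreme genes, down to 1.42 nt. By quartiles the contrast was smaller, 87.5 nt to 95.3 nt for the 19 and 74.5 nt to 92.1 nt for the 450. Within that band the order was kept between replicates, with a Spearman's correlation of 0.87 over the 19 genes. Over all 55 members with 10 reads in each replicate it was 0.43, and the points share their libraries and differ widely in depth. The median absolute difference between replicates was 4.22 nt for the 19 genes and 6.4 nt for the 55, so neighbours in the order, such as Rpl4, Rpl6, Rps3a1 and Rps3 at 89.6 nt to 90.7 nt, were not distinguishable.

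**Figure D3:**
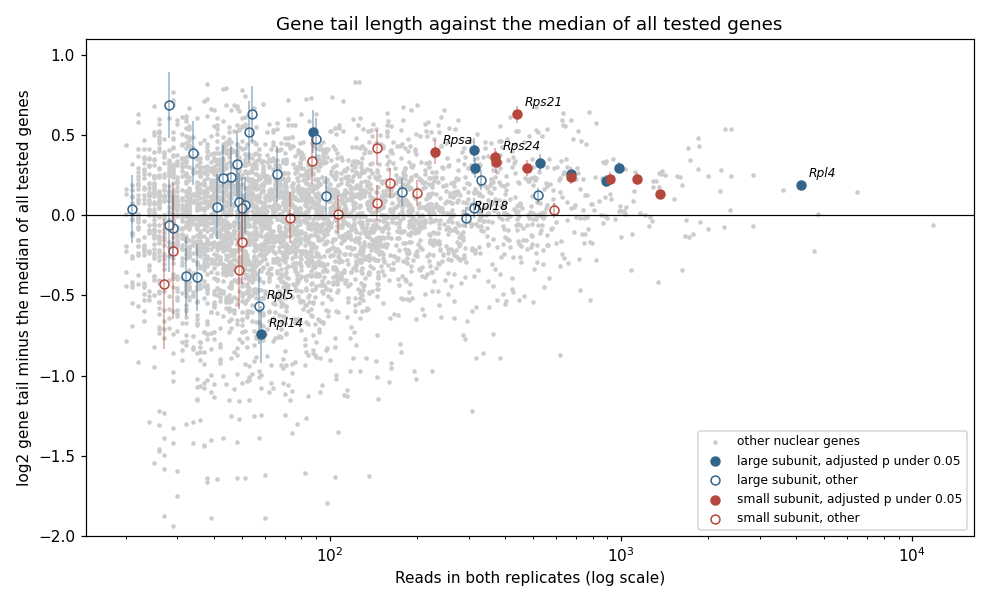
Deviation of each gene's log2 tail from the median of all tested genes (vertical axis) against its reads in both replicates (log axis), for large-subunit (blue) and small-subunit (red) members over all other tested genes (grey). Filled points passed an adjusted p under 0.05 in limma, bars are moderated standard errors, and 10 other genes below -2 lie outside the axis. Most well-read members lie above 0, while Rpl14, at -0.74, is the only member called shorter, a call lost under several of the alternatives tried.

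Members with few reads behaved differently from this band, and tails of 1 to 5 nt moved with them. Such tails made up 0.275% (0.176% to 0.429%) of all member reads in replicate 1 and 0.903% (0.746% to 1.09%) in replicate 2, against 1.52% and 2.75% of all nuclear reads. In members with 100 or more reads the shares were 0.161% and 0.444%. In members with 30 to 99 reads they were 1.16% and 4.81%, and in those with 10 to 29 reads 1.72% and 7.90%, from 3 of 174 and 21 of 266 reads. All tested genes of the same read classes, the lowest first, had 2.03% and 4.74%, 1.41% and 3.44%, and 1.34% and 2.15%. The rise toward low reads was thus mainly in replicate 2, and it was steeper among the members.

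Single members show what this does to a geometric mean. For instance, Rps27a, which encodes ubiquitin fused to a 40S protein, had 130.7 nt in replicate 1 from 13 reads and 34.2 nt in replicate 2 from 16 reads, 4 of them with 1 to 5 nt. Rps25 had 108.7 nt and 30.8 nt, and Rps28 118.1 nt and 45.3 nt, again with 4 such reads each, all in replicate 2. Rps18 had 80.9 nt from 2 reads and 27.5 nt from 16. In each of these genes replicate 1 lay above the median of all genes and replicate 2 below it, and Rps27a and Rps25, which alone of the 4 entered the fit, did not pass it (limma adjusted p with Benjamini-Hochberg adjustment of 0.775 and 0.542). The shortest gene tail belonged to Rpl9, with 25 nt over 35 reads, of which 9 had tails of 1 to 5 nt, all in replicate 2.

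Other members with 10 to 29 reads ran in order from Rpl35 (74.1 nt), Rplp2 (74.6 nt), Rpl22l1 (78.9 nt), Rpl17 (80.1 nt) and Rps26 (80.4 nt) through Rpl28 (87.8 nt), Rps7 (91.7 nt), Rps23 (93.8 nt), Rpl10l (94.4 nt) and Rpl34 (97.4 nt) to Rpl21 (103.6 nt), Rps2 (108.8 nt), Rpl10a (116.3 nt), Rpl39l (117.3 nt), Rps12 (122.6 nt), Rpl26 (125.0 nt) and Rpl3 (187.9 nt). Rpl3, a protein of the peptidyl transferase region, had 184.0 nt from 3 reads and 189.0 nt from 11, and every one of its 14 tails was over 90 nt. None of the 6 of these 22 members that entered the fit was called in either direction. Of all 380 genes with 10 to 29 reads in the fit, 0 were called longer and 13 shorter. With so few reads the spread between replicates was often as large as the spread between genes, for example 205.8 nt from 4 reads and 90.2 nt from 9 for Rpl10a.

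The reads of most ribosomal protein genes were split with near-identical pseudogenes, so values of single members are uncertain to that extent. Transcripts of 727 pseudogenes with reads were matched to protein-coding genes by sequence, and 197 matched 1 of 75 ribosomal protein genes best, with at least 80% identity over at least 50% of their length (median identity 98.9%). These pseudogenes held 35745 reads, 4.96% of nuclear reads in replicate 1 and 5.17% in replicate 2, where all ribosomal protein genes held 18623 reads. Of 87 genes with a read at the gene or at a match, 55 had more reads at pseudogenes than at the gene. Rpl5 had 57 reads and its pseudogenes 2299, of which 2201 lay at Gm15500, whose transcript is 100.0% identical over 99.9% of its length. Rps2 had 14 reads and its pseudogenes 2223, and Rpl3 had 14 and 1594. At the other end, the well-read genes Rpl4, Rpl8 and Rps3 had no matched pseudogene with reads.

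Tails at pseudogenes were somewhat longer than those of the well-read members. Over reads they had a median of 105 nt in replicate 1 and 103 nt in replicate 2, where members with at least 100 reads in each replicate had 99 nt in both, and 0.041% and 0.140% of these reads carried a tail of 1 to 5 nt. Of 55 genes with at least 10 reads at both places, the pseudogene tail was longer in 41 and shorter in 14, with a median difference of 8.24 nt. Rpl14 had 52.0 nt and 41.7 nt at the gene, from 14 and 44 reads, and 97.3 nt at its pseudogene Rpl14-ps1 with 883 reads. Rpl5 had 48.1 nt at the gene and 94.8 nt at its pseudogenes, and Rps18 had 31 nt and 92.1 nt. Rpl3 moved the other way, from 187.9 nt at the gene to 93.1 nt at its pseudogenes.

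With the reads of each gene and its matched pseudogenes joined, an alternative chosen after the values were seen, members took 7.77% and 7.73% of nuclear reads, and 84 genes had at least 10 reads. The median gene tail was then 94.8 nt (quartiles 89.4 nt and 101.6 nt), with 94.0 nt for 52 large-subunit and 95.8 nt for 32 small-subunit genes. In the same fit, 62 of 81 members were called longer than the median and 0 shorter (limma with Benjamini-Hochberg adjustment), where 5.75% of all genes were called longer. Joining added reads to ribosomal protein genes only, to a median of 520.5 per gene, and genes with more reads are called more often. In the main fit, 32.4% of all genes with at least 100 reads in each replicate were called longer. How much of the rise in calls came from depth was not tested. Rpl14 stood at 92.7 nt and was no longer called shorter, Rpl3 at 93.7 nt and Rps18 at 89.4 nt. Rpl9 stayed short when pooled, at 26.1 nt with 1 read added. By replicate it had 120.9 nt from 5 reads in replicate 1 and 20.4 nt from 31 in replicate 2. Rps21 kept 120.3 nt. Rpl9-ps6 (315 reads) and Rpl10-ps3 (527 reads) are annotated as protein-coding, so their reads were not joined to Rpl9 and Rpl10. The reads at a pseudogene may come from the gene or from the pseudogene, and the 2 sources cannot be told apart with these data.

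**Figure D4:**
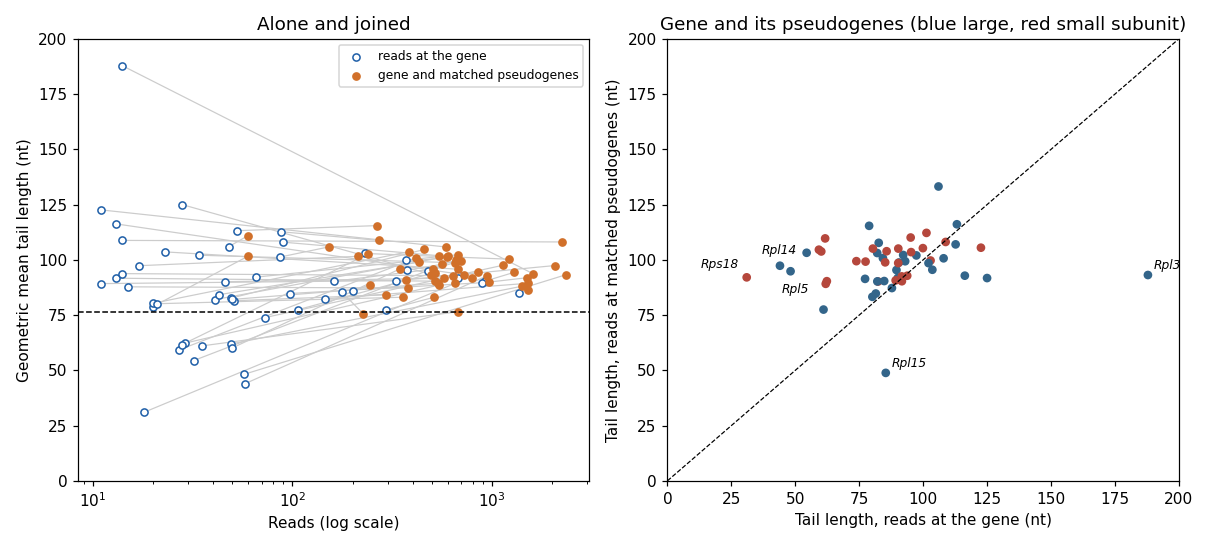
Left, reads (log axis) and gene tail (nt) of the 55 genes with at least 10 reads at the gene and at its matched pseudogenes, for reads at the gene (open blue) and for both joined (filled orange), with a line for each gene and the median of all tested genes dashed. Right, tail at the gene against tail at its pseudogenes, with the line of equality. Open points spread from 31 nt to 187.9 nt and the joined values close in on the band near 95 nt, with 41 of 55 genes above the line of equality.

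Members were next grouped by their place in the ribosome. In the P stalk, which recruits elongation factors, Rplp0 had 92.6 nt in replicate 1 and 89.0 nt in replicate 2 from 330 reads (limma adjusted p = 0.0633, Benjamini-Hochberg). Rplp2 had 108.1 nt and 51.4 nt from 14 reads each, on either side of the median of all genes, and Rplp1 had 6 reads and was not tested. In the 5S particle, whose proteins also bind Mdm2 when ribosome assembly fails, Rpl11 had 100.0 nt and 84.8 nt and Rpl5 70.3 nt and 39.2 nt. Neither passed (limma adjusted p = 0.459 and 0.165), and joined with their pseudogenes they had 91.7 nt and 93.3 nt.

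Around the exit of the peptide tunnel, 4 of 7 proteins were tested, with a median of 86.2 nt, and 0 of 4 were called, where 5.69% of all tested genes were called longer and 6.7% shorter. Of 14 proteins of the 40S head 12 were tested, with a median of 82.8 nt, and 2 of the 8 in the fit were called longer, Rps3 and Rps15, both with at least 100 reads in each replicate, a depth at which 32.4% of all genes were called longer. Of the 9 genes listed for Diamond-Blackfan anaemia, a failure of red cell production, all were tested, with a median of 89.2 nt, and 1 of the 6 in the fit was called longer, Rps24, which is as well read. Rpsa, known also as the laminin receptor precursor, had 104.4 nt in replicate 1 and 100.7 nt in replicate 2. It was longer than the median by 1.32-fold (limma adjusted p = 0.018).

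Paralogs stand in for a core protein in some tissues, and 6 of 8 annotated were tested, with a median of 97.8 nt. Rps27l had 95.1 nt and 114.3 nt from 145 reads, and Rps27rt 91.3 nt and 106.4 nt from 87. Rpl7l1, with 312 reads, was the paralog with the most reads and stood at 79.5 nt pooled, lower than the others except Rpl22l1 at 78.9 nt. The testis-enriched paralogs Rpl10l and Rpl39l had 25 and 22 reads, with 94.4 nt and 117.3 nt. None of the 3 paralogs in the fit was called, with limma adjusted p-values of 0.698 for Rpl7l1, 0.167 for Rps27rt and 0.0523 for Rps27l (Benjamini-Hochberg). Of all tested genes, 5.69% were called longer and 6.7% shorter.

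Beyond length, the bases of member tails were examined. A base other than A was present in 9.98% of member tails in replicate 1 (9.30% to 10.7%) and 7.45% in replicate 2 (6.99% to 7.94%). All nuclear reads had 12.2% (12.0% to 12.3%) and 9.55% (9.46% to 9.63%), so members were lower in each replicate, and the replicates differed from each other by about as much. By base, T was in 4.69% and 3.65% of member tails against 7.16% and 5.38% of all, while C (3.46% and 2.65% against 3.61% and 3.01%) and G (2.72% and 1.99% against 2.76% and 2.30%) were closer. Most of the gap therefore lay in T.

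A T at the very end of the tail, as in the Rps15 read above, is what terminal uridylation can leave. It closed 2.15% of member tails in replicate 1 (1.84% to 2.52%) and 1.20% in replicate 2 (1.02% to 1.42%), against 3.93% and 2.59% of all nuclear tails. Nuclear genes for subunits of oxidative phosphorylation, with 2.56% and 1.58%, and mitochondrial ribosomal protein genes, with 2.80% and 2.04%, were below all nuclear tails as well. The large subunit had 2.10% and 1.26% and the small subunit 2.24% and 1.12%, with overlapping intervals. Among tails of 6 to 30 nt, 6.70% of 194 and 3.19% of 314 member tails ended in T, against 18.3% and 13.4% of all nuclear tails of that length. Among tails of 31 to 90 nt it was 2.35% and 1.63% against 3.20% and 2.13%, and among longer ones 1.80% and 0.834% against 2.09% and 1.27%. Members were thus lower in every length class and in both replicates, though no intervals were computed for these classes. At 6 to 30 nt and at 31 to 90 nt this was not particular to members. Nuclear genes for subunits of oxidative phosphorylation had 7.56% and 6.37% at 6 to 30 nt, and mitochondrial ribosomal protein genes 10.1% and 8.77%. At 31 to 90 nt these lists had 2.5% and 1.3%, and 2.5% and 1.8%. Among tails over 90 nt the oxidative phosphorylation genes had 2.40% and 1.52%, above all nuclear tails.

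Of the 19 members with at least 100 reads in each replicate, Rpl7l1, Rpl9-ps6 and Rps15 had the highest shares of tails that end in T, at 3.53%, 2.54% and 2.41%, from 11, 8 and 9 reads. The range over the 19 was 0.628% to 3.53%. Rps15 had its 9 reads all in replicate 2, so the order within these genes rests on very few reads.

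Other gene lists were set beside the members. The 74 tested mitochondrial ribosomal protein genes, whose products translate in the mitochondrion, stood at a median of 87.4 nt per gene, and 0 of the 57 in the limma fit were called in either direction, where 5.69% of all tested genes were called longer and 6.7% shorter. They had a median of 44.5 reads per gene against 53.5 for the members, with median log2 deviations of 0.19 and 0.20. Their reads differed from cytosolic members at the short end, with 7.54% and 6.59% of tails of 6 to 30 nt. Nuclear genes for subunits of oxidative phosphorylation (OXPHOS), whose transcripts are about as short (median 1026 nt), had a median of 100.4 nt over 68 genes, and 17 of 61 were called longer and 0 shorter, against the same 5.69% and 6.7%. Their share of tails of 6 to 30 nt was 2.48% (2.07% to 2.96%) in replicate 1 and 2.85% (2.49% to 3.27%) in replicate 2, with intervals that overlap those of the members, so the low share at the short end was shared with this list. Translation factors and other genes listed for a 5′TOP had 86.8 nt over 20 genes. There 3 of 20 were called longer (Eef2, Hnrnpa1 and Nap1l1) and 3 shorter (Eef1b2, Eif3a and Eif4b), again beside 5.69% and 6.7% of all tested genes. The list had a median of 389.5 reads per gene. Every called gene had at least 100 reads in each replicate, a depth at which 32.4% of all genes were called longer and 11.1% shorter.

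Of the ribosomal proteins whose symbols the rule does not reach, Rack1, a scaffold on the 40S head, had 91.8 nt and 89.1 nt from 1294 reads and was called longer (limma adjusted p = 0.00659, Benjamini-Hochberg). Fau, which carries a ubiquitin-like part fused to a 40S protein, had 98.1 nt and 91.4 nt from 39 reads and did not pass (limma adjusted p = 0.396). Both genes lay in the band of the well-read members.

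**Figure D5:**
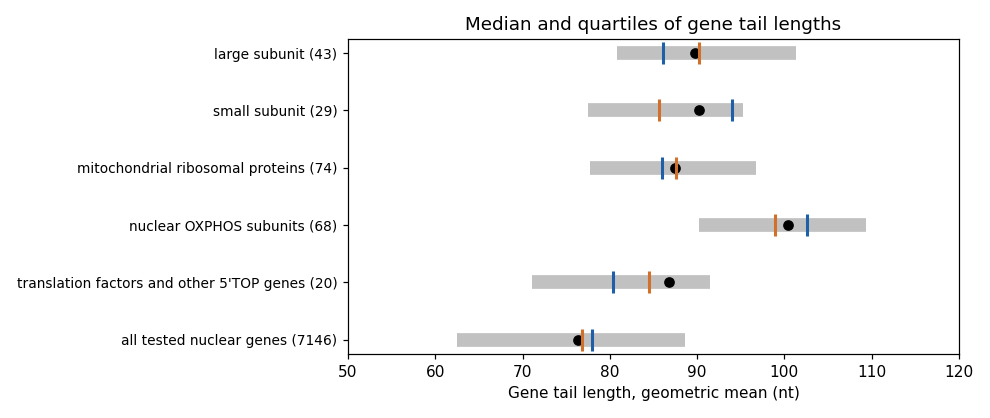
Median (black point) and quartiles (grey bar) of gene tail length in nt for each gene list, with the number of tested genes in brackets and the medians within replicate 1 (blue mark) and replicate 2 (orange mark). Large and small subunit (89.8 nt and 90.3 nt) lie between all tested genes (76.4 nt) and the nuclear OXPHOS subunits (100.4 nt), and the replicate marks of the subunits cross.

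The promoters of the members were read from the RefSeq table for GRCm38.p6, as 5′TOP mRNAs start at a C within a pyrimidine run. The motif searched was a C followed by at least 7 bases that are each C or T, on the sense strand only. The table held 55 of the 72 members. From 50 bases before to 50 after the annotated start, 45 of them (81.8%) held the motif, against 30.6% of 5486 tested genes with a promoter in the table, 32.0% of all 27025 genes of the table and 31.8% of mitochondrial ribosomal protein genes. Up to 30 bases after the start, the numbers were 35 of 55 (63.6%), 26.7%, 27.2% and 28.8%. The well-read members stood lower, with 7 of 11 in the wider and 5 of 11 in the narrower window. A match describes letters only, and its position relative to the true start of transcription was not measured.

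The 5 well-read members with a match in the narrower window are shown from 50 bases before to 30 after the annotated start, all on the plus strand of GRCm38.p6, with the run nearest to the start in capitals. They lie at chr9:64173337-64173416 for Rpl4, chr7:3703991-3704070 for Rps9, chr2:180257399-180257478 for Rps21, chr14:24490628-24490707 for Rps24 and chr7:45718021-45718100 for Rpl18. Rps21 and Rpl18, the longest and the shortest tails of the band, both held a run of 10 bases.
Rpl4: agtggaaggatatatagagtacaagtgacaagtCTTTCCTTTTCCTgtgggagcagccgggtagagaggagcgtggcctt
Rps9: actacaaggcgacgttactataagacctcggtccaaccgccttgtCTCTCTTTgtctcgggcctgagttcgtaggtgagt
Rps21: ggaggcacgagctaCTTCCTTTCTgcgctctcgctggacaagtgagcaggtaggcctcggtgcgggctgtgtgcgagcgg
Rps24: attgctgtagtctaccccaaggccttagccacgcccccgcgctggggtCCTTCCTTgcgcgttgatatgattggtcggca
Rpl18: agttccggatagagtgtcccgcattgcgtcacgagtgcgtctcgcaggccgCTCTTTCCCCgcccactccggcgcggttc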

How the data were processed

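Total RNA of wild-type 24h-EpiLCs was sequenced by PAIso-seq. Per the labels and the study's methods, the authors made circular consensus reads, split them by barcode, mapped them to mm10 with minimap2 2.17, took the clipped 3′ bases as the tail and assigned genes with featureCounts 2.0.1. The deposited table gives whole-number counts for each read, that is, of passes and of A, T, C and G bases in the tail, and the tail sequence, with no normalization. Per the study's methods, secondary alignments were turned off in the mapping and repetitive reads were removed. How a locus was chosen for reads that fit several equally well is not given in the sources used here.

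Tail length was the number of tail bases. Reads with at least 7 passes and nuclear genes with at least 10 reads were kept, and 12955 of 12962 gene identifiers were found in GENCODE vM21. limma 3.58.1 in R 4.3.3 fitted an intercept to log2 gene tail minus the replicate's median, with a variance trend on log2 reads and Benjamini-Hochberg adjustment over 4286 genes with at least 10 reads in each replicate. Calls are two-sided at an adjusted p under 0.05. Tested on made data for these 4286 genes, the fit recovered 77.5% of 200 genes shifted by 0.5 on the log2 scale, and 7 of 162 calls were wrong. The shifted genes were drawn only from those with at least 30 reads in each replicate. Of the 55 members in the fit, 31 had that depth, and recovery at lower depth was not tested. These rates describe the made data only. In the real data, members with few reads had more very short tails in replicate 2 than in replicate 1. Whether the rates hold for calls on such members was not tested. Pseudogenes were matched with blastn 2.17.0. Python 3.11.15 with pandas 2.3.3 and scipy 1.17.1 gave counts and intervals. A share that 3 reads can show is 0.00122% of nuclear reads in replicate 1 and 0.000658% in replicate 2.

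The members, gene lists and alternatives were chosen with earlier results of these data known. Genes named singly are, among members with at least 100 reads in each replicate, the 5 longest and 5 shortest of each subunit and the 3 with the most tails ending in T. Also named are the 5 members with the most reads, P stalk, 5S and paralog genes, Rpsa, Rps27a, members with 10 to 29 reads, and the ribosomal proteins outside the symbol rule. A few genes that the rule names are not reported here. Others (such as Rpl14, Rpl9, Rpl10 and the pseudogenes) were named after their values were seen. The alternatives changed the pass filter, the summary per gene, the read minimum, the shortest tail, the background, the fit and the member list, or left out a replicate.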

Additional observations from a re-analysis of the deposited data

Results flagged for a closer look

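Reads with 3 to 6 passes were used in none of the comparisons. In members they numbered 920, 375 in replicate 1 and 545 in replicate 2, or 1.79% of the 51533 nuclear reads with that many passes, where 3 reads would be 0.00582%. Their tails had a median of 102 nt (99 nt in replicate 1 and 104 nt in replicate 2) against 90 nt for all such nuclear reads, and 8 of the 920 had a tail of 1 to 5 nt. They were singled out because they are a signal in data left out of the comparisons. No member was examined for a sample that stands apart, since 2 replicates are too few for that.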

How the results depend on the processing

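The members' median stayed above that of all genes under all alternatives but one, with differences of 10.5 nt for arithmetic means, 11.4 nt to 14.5 nt for the others tried on the genes alone, 11.4 nt to 14.6 nt without either replicate, and 18.7 nt with matched pseudogenes joined (all genes recomputed). Against protein-coding genes with transcripts up to 1000 nt it was -5.37 nt. The difference between subunits moved by less than the replicate SD throughout, from -7.86 nt to 4.59 nt without either replicate. The 17 longer members became 4 with gene medians, 62 of 81 with pseudogenes joined (which adds reads to members only) and 0 without the variance trend, and 15 to 23 otherwise. Over all genes the share called longer was 5.69% in the main fit. It was 2.66%, 5.75% and 0.0% in the settings just named, in that order, and 3.21% to 13.0% otherwise. The 1 shorter member (Rpl14) became 0 without a pass filter, with at least 30 reads, against protein-coding genes, centred by the mean, without the trend and with pseudogenes joined. Calls need both replicates, so none could be made without one. The members' share of reads, 2.64%, was 2.43% without paralogs and -ps symbols and 7.74% with pseudogenes (2.55% to 2.81% without either replicate). Tails over 90 nt, 56.8%, were 56.5%, 57.2% and 59.3% without those symbols, with tails of at least 6 nt and with pseudogenes (56.7% to 57.0% without either replicate). Tails of 1 to 5 nt ranged from 0.275% to 0.903%, tails with another base from 7.45% to 9.98% and tails ending in T from 1.20% to 2.16% without either replicate, and 6.22% held another base once the first and last base were left out.

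For named genes, 276 of 346 deviations kept direction and side of the threshold, 32 lost a call, 14 gained one and 24 turned sign. Those that turned, all of genes without a call in the report, were Rpl18 (0.00503 without a pass filter, 0.00192 against protein-coding genes, 0.0529 centred by the mean, 0.0936 with pseudogenes) and Rpl32 (-0.0202 with medians). Among members with few reads they were Rplp2 (0.0446 with at least 15 passes, 0.369 with medians, 0.139 with arithmetic means, 0.431 with tails of at least 6 nt, 0.00453 centred by the mean), Rpl5 (0.272 with pseudogenes), Rps27a (0.177, 0.121 and 0.396 with medians, arithmetic means and tails of at least 6 nt, 0.214 with pseudogenes), Rps25 (0.165 and 0.173 with medians and arithmetic means, 0.401 with pseudogenes), Rpl35 (0.288, 0.186 and 0.348 in the order of Rps27a) and Rpl17 (-0.174, -0.0671 and -0.024 in that order). The cause of these changes was not tested. No paired analysis was possible because 1 group was measured. Depth limited members with under 30 reads, whose replicates often differed by as much as genes did.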
